A study of Homo sapiens with 3 samples.

Results

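The proteasome is the protease that degrades ubiquitin-tagged proteins in the cytosol and nucleus of every eukaryotic cell. Its barrel-shaped core is a stack of outer alpha rings (PSMA genes) and inner beta rings (PSMB genes), with the active sites on the inside, and a regulatory cap of ATPases and non-ATPase subunits (PSMC and PSMD genes) binds ubiquitin chains, unfolds the substrate and feeds it into the core. Other genes of the family encode activators that dock onto the core, an inhibitor, and chaperones that assemble the particle and then leave it. Subunits of a finished particle are present in fixed proportions, so their transcript levels are usually read against each other.

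The 48 protein-coding genes with a symbol of the PSMA to PSMG series were described among 19926 protein-coding genes and 61193 genes in all. They were chosen by symbol alone and divided by role into 7 alpha-ring genes, 7 beta-ring genes, 5 inducible or tissue-specific core genes, 6 cap ATPases, 3 other subunits of the cap base, 8 lid subunits, 4 activators, 1 inhibitor and 7 assembly factors. Transcripts were measured in 3 replicates of HEK293T, a line from human embryonic kidney with the large T antigen of SV40, grown without a named treatment and collected 24 h after 1500000 cells were seeded per flask, with RNA taken from 3000000 cells. There was 1 condition and no control group, so levels are described and no groups were compared.

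The libraries were made with a QuantSeq kit, in which reads start near the 3′ end of polyadenylated RNA. They held 6262175 to 8521624 counts, of which mitochondrial genes took 9.59%, 5.70% and 25.8% in replicates 1 to 3. The proteasome genes held 5774, 5416 and 6033 counts. A count of 0 allows up to 3 counts, or 0.352 to 0.479 CPM (counts per 1000000) in a library, and this limit covers counting error only. Of 8 genes listed for the line, 4 had a mean of at least 1 TPM (transcripts per 1000000), with PAX2 at 8.96 ± 3.24 TPM (SD, n = 3), whereas KRT18, NEFL and NEFM were at 0 counts and VIM had 0, 6 and 5 counts. Of 16 markers of leukocytes, fibroblasts, endothelium and liver, COL1A1 (24.8 ± 0.330 TPM) and CD74 (2.34 ± 0.991 TPM) reached 1 TPM, and the other 14 had at most 3 counts in every library.

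TPM scales counts by transcript length to a total of 1000000 in each library, and the TPM of transcripts was summed per gene. With expression set at a mean of at least 1 TPM, 23 of the 48 proteasome genes were expressed, against 38.2% of all protein-coding genes. A gene was placed in the high category at or above 24.1 TPM, the upper quartile of all 13296 expressed genes, and in the low category at or below 2.40 TPM, the lower quartile. The high category held 6 proteasome genes, against 12.5% of protein-coding genes, the medium category held 11 and the low category 6. At most 3 counts in every library were found for 21 genes, against 50.9% of protein-coding genes, and 12 of these 21 were at 0 in all libraries. All 48 genes together held 761, 817 and 539 TPM, which is 0.0705% ± 0.0147 of all TPM (SD, n = 3). Replicate 3, the library with the largest mitochondrial share, had the lowest sum. With mitochondrial genes left out, the share over the replicates was 0.0972%.

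**Figure D1:**
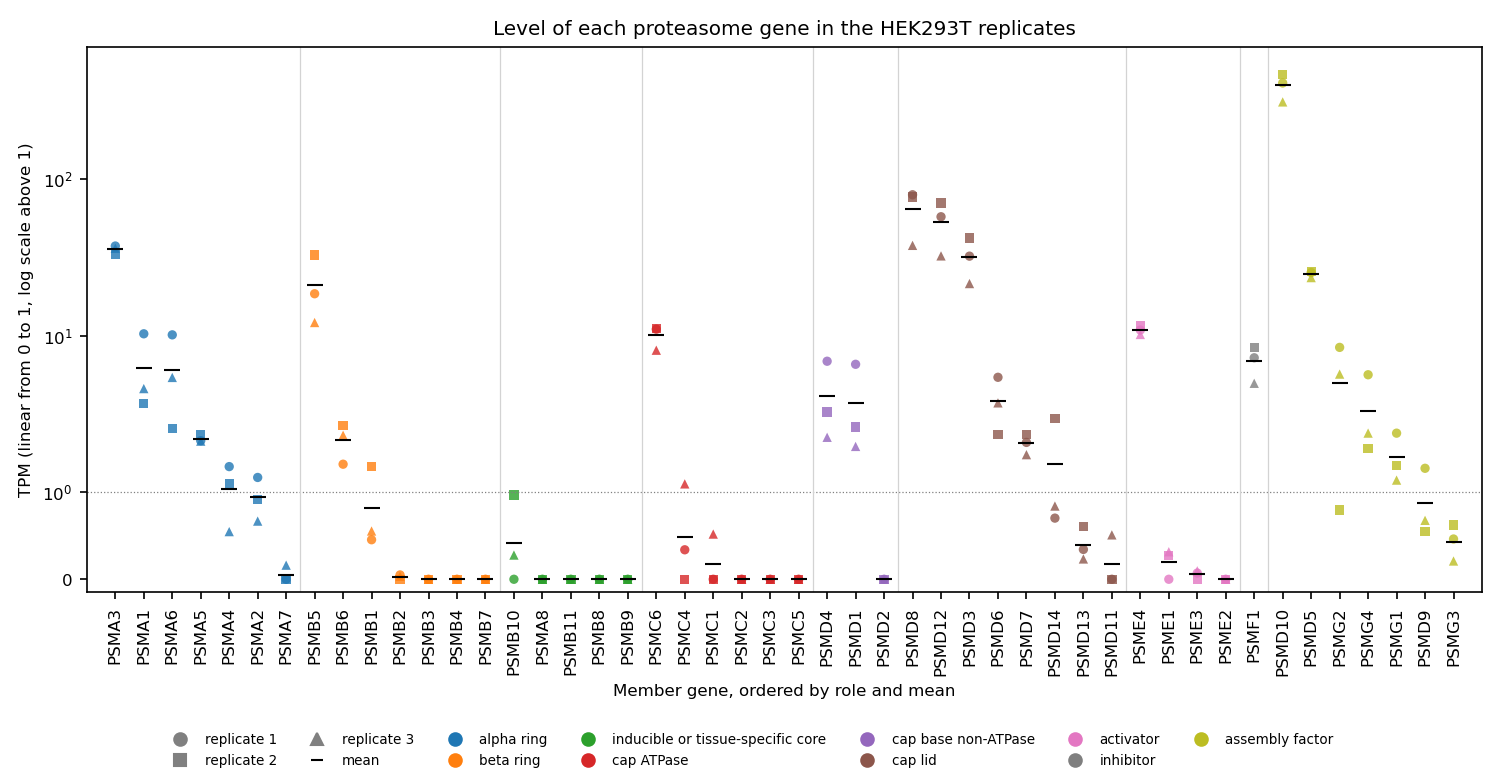
TPM of each of the 48 proteasome genes in each HEK293T replicate (marker shape) and its mean (bar), ordered by role (colour) and mean, on an axis that is linear from 0 to 1 and logarithmic above, with a dotted line at 1 TPM. PSMD10 lies between 312 and 468 TPM, above every other gene. In the beta ring, the cap ATPases and the activators 1 gene stands far above the others. The means of these others lie under 1 TPM, except PSMB6 (2.17 TPM).

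Assembly factors held the largest sum of all roles, 434 ± 79.2 TPM (SD, n = 3). PSMD10 (ENSG00000101843, chrX:108084207-108091549, minus strand, GRCh38), a chaperone of base assembly also known as gankyrin, had 2750, 2639 and 3058 counts, or 412, 468 and 312 TPM, with a mean of 398 ± 79.2. It ranked first both per length and in CPM (391 ± 31.3) and held 56.4% of the TPM of all 48 genes. PSMD5, another base chaperone, had 311, 268 and 380 counts and 25.4, 25.7 and 23.5 TPM, a narrow range on this scale. Scaled to nuclear genes alone it varied more, as described below. The third base chaperone, PSMD9, had 14, 5 and 9 counts and a mean of 0.882 ± 0.473 TPM, which was 1.05 TPM without replicate 2.

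The core chaperones were lower than PSMD10 and PSMD5 in every library. PSMG4 had 50, 22 and 38 counts and 3.31 ± 2.03 TPM. PSMG1 had 19, 10 and 14 counts and 1.69 ± 0.621 TPM. PSMG2 had 15, 1 and 15 counts, a wide spread for its level, with 8.43, 0.795 and 5.69 TPM. Without replicate 1, the mean of PSMG4 was 2.15 TPM and that of PSMG2 was 3.24 TPM. PSMG3 was lowest, with 3, 3 and 2 counts. PSMG1 binds PSMG2, and PSMG3 binds PSMG4, in the dimers that guide alpha-ring assembly. The replicates of PSMG4 (1.91 to 5.64 TPM) all lay above those of PSMG3 (0.210 to 0.624 TPM), whereas PSMG1 and PSMG2 overlapped.

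The lid, which carries the deubiquitinase of the cap, had the next largest sum, 158 ± 52.5 TPM (SD, n = 3), and 6 of its 8 genes were expressed. PSMD8 had 208, 169 and 145 counts and 79.6, 77.0 and 37.8 TPM. PSMD12 had 1139, 1179 and 941 counts and 57.6, 70.6 and 32.4 TPM. PSMD3 had 319, 351 and 317 counts and 32.3, 42.2 and 21.6 TPM. These 3 structural subunits were all in the high category, and in each of them replicate 3 was lowest in TPM. PSMD8 stood above PSMD12 per length, whereas the CPM of PSMD12 (154 ± 39.6) exceeded that of PSMD8 (24.5 ± 6.65). PSMD6 followed with 33, 19 and 56 counts and 3.84 ± 1.54 TPM, and PSMD7 with 8, 9 and 10 counts and 2.05 ± 0.299 TPM. PSMD14, the zinc-dependent deubiquitinase, had 5, 18 and 13 counts and 0.703, 2.98 and 0.842 TPM. Its mean of 1.51 TPM passed 1 TPM through replicate 2 alone and was 0.773 TPM without it. PSMD13 had 2 or 3 counts per library, and PSMD11 had 3 counts, all in replicate 3.

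The alpha ring forms the gate of the core. It was the core layer with the higher sum over all transcripts, 52.2 ± 9.60 TPM (SD, n = 3), and 5 of its 7 genes were expressed. Coding transcripts held 2.23% of the counts of PSMA3, 0% in PSMA1 and PSMA6, and 100% in PSMA4 and PSMA5. In the beta ring they held 100% in PSMB5 and 0% in PSMB6. The sums of the layers were not compared on coding transcripts alone. PSMA3 had 118, 82 and 158 counts and 37.5, 33.4 and 36.3 TPM, a mean of 35.7 ± 2.10, and held 68.4% of the sum. PSMA1 had 23, 8 and 15 counts (6.19 ± 3.58 TPM) and PSMA6 had 39, 14 and 61 counts (6.04 ± 3.83 TPM). For both, replicate 1 was highest in TPM, although PSMA6 had its highest count in replicate 3, and without replicate 1 their means were 4.14 and 3.99 TPM. PSMA5 had 37, 34 and 54 counts and 2.14, 2.32 and 2.12 TPM. PSMA4 had 29, 19 and 16 counts and a mean of 1.05 ± 0.462 TPM, which was 0.840 TPM without replicate 1. PSMA2 lay just under 1 TPM, at 0.944 ± 0.288 and at 1.08 without replicate 3, and PSMA7 had 1 count in all.

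The beta ring carries the proteolytic sites, and its sum was 24.2 ± 11.4 TPM (SD, n = 3). PSMB5, the chymotrypsin-like subunit that proteasome inhibitors such as bortezomib bind, held 87.5% of it, with 38, 56 and 36 counts and 18.6, 32.9 and 12.2 TPM. PSMB6, the caspase-like subunit, had 4, 6 and 9 counts and 2.17 ± 0.599 TPM. PSMB7, the trypsin-like subunit, was at 0 counts in all libraries. The TPM of PSMB5 and PSMB6 did not overlap between replicates, but they rest on unlike transcripts. All 19 counts of PSMB6 lay on PSMB6-203, a transcript of 583 bases annotated with a retained intron, and none on a coding transcript. Of the PSMB5 counts, 99.2% lay on PSMB5-206, a coding transcript of 444 bases. Among the non-catalytic subunits, PSMB1 had 4, 5 and 6 counts (0.824 ± 0.556 TPM, and 1.01 without replicate 1), PSMB2 had 1, 0 and 1, and PSMB3 and PSMB4 had 0.

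Inducible and tissue-specific core genes were at or near 0. PSMB8, PSMB9 and PSMB10 replace PSMB5, PSMB6 and PSMB7 in immunoproteasomes, which cells of the immune system carry and interferon induces elsewhere. PSMB8 and PSMB9 had 0 counts and PSMB10 had 0, 2 and 1. Their share of the TPM of the 3 pairs was 1.75%, and 0.799% to 2.43% with 1 replicate left out. This share rests on the 3 counts of PSMB10 alone, whose partner PSMB7 had 0 counts. PSMA8, a testis gene, and PSMB11, a thymus gene, also had 0 counts. At the depth of these libraries a count of 0 allows up to 0.696 TPM for PSMB8, 0.769 for PSMB9, 0.436 for PSMA8 and 0.423 for PSMB11 on the length of the canonical transcript. The last 300 exonic bases of PSMB9 were 88.7% its own and those of PSMB11 100%, in the sense described below. Those of PSMA8, PSMB8 and PSMB10 were 0% their own. Those of the partners PSMB5, PSMB6 and PSMB7 were 0.667%, 0% and 0.333% their own. The limits above cover counting error only, and the part of shared ends in the share of the pairs was not tested.

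In the cap base, the ATPases form the ring that pulls the substrate into the core, and 1 of 6 was expressed. PSMC6 had 112, 94 and 122 counts and 11.0, 11.2 and 8.09 TPM, and held 93.8% of the ATPase sum of 10.8 ± 0.881 TPM (SD, n = 3). PSMC4 had 1, 0 and 8 counts and PSMC1 had 0, 0 and 2, so that for both replicate 3 was highest. PSMC2, PSMC3 and PSMC5, each with 0% own bases at the 3′ end, had 0 counts. On the canonical length this allows up to 0.289, 0.508 and 0.588 TPM, a limit that covers counting error only. On a shorter transcript the same counts make a higher TPM, as for PSMC1, whose 2 counts in replicate 3 gave 0.520 TPM. The other base subunits were PSMD4, a ubiquitin receptor, with 25, 10 and 12 counts and 4.13 ± 2.44 TPM, and the scaffold PSMD1, with 14, 6 and 7 counts and 3.72 ± 2.50 TPM. In both of these replicate 1 was highest, and without it their means were 2.75 and 2.29 TPM. PSMD2, the other scaffold, had 0 counts.

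Among the activators, PSME4, which encodes the large single-chain activator of the nucleus, had 350, 292 and 445 counts. Its TPM of 10.9, 11.6 and 10.2 made up 97.7% of the activator sum. PSME1 and PSME2, which form the interferon-inducible ring, had 3 counts in all and 0 counts, and PSME3, the nuclear ring, had 3 in all. The inhibitor PSMF1 had 78, 78 and 55 counts and 7.24, 8.45 and 4.97 TPM.

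Over the 31 structural subunits of the constitutive core and the cap, 16 were expressed. Their median was 1.05 TPM, and their sum was 253 ± 65.8 TPM (SD, n = 3). The levels ran from 0 counts to 64.8 TPM, and log2(TPM + 1) had an SD of 1.90 between subunits. In the order of mean TPM from PSMD10 down to PSMA2, the replicates of neighbours separated fully at 2 places, between PSMD10 (398 TPM) and PSMD8 (64.8), and between PSMB5 (21.2) and PSME4 (10.9). At the other places the ranges of neighbours overlapped, although the order held within each library for PSMD8 over PSMD12 and for PSMC6 over PSMF1. An exact permutation test of 3 against 3 values cannot go below p = 0.1, so no test between genes was made.

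Counts were deposited per transcript, so the counts of each gene were set beside the sequence of its 3′ end. The final 300 exonic bases of each canonical transcript were taken, and a base was called its own where no other listed transcript covered it on the strand. Less than 10% of these bases were their own in 31 of the 48 proteasome genes, called a shared end here, against 53.1% of 19351 protein-coding genes. The median count was 1 in these 31 genes, and they held 9.48% of the proteasome counts. At least 90% were their own in 14 genes, with a median count of 31.5 and 84.7% of the counts. Over all protein-coding genes the same medians were 0.333 and 23.3, and the shares of counts were 9.68% and 85.3%, close to those of the proteasome genes. PSMD10 held 8447 and PSMD12 held 3259 of the 14589 counts of the 14 genes, so the closeness of these shares rests largely on PSMD10 and PSMD12. Of the 14 genes 10 were expressed (71.4%, against 53.3% of protein-coding genes with such an end), and of the 31 genes 12 (38.7%, against 26.1%). All points share the libraries and the annotation, and genes are not replicates, so these values are given as a description.

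**Figure D2:**
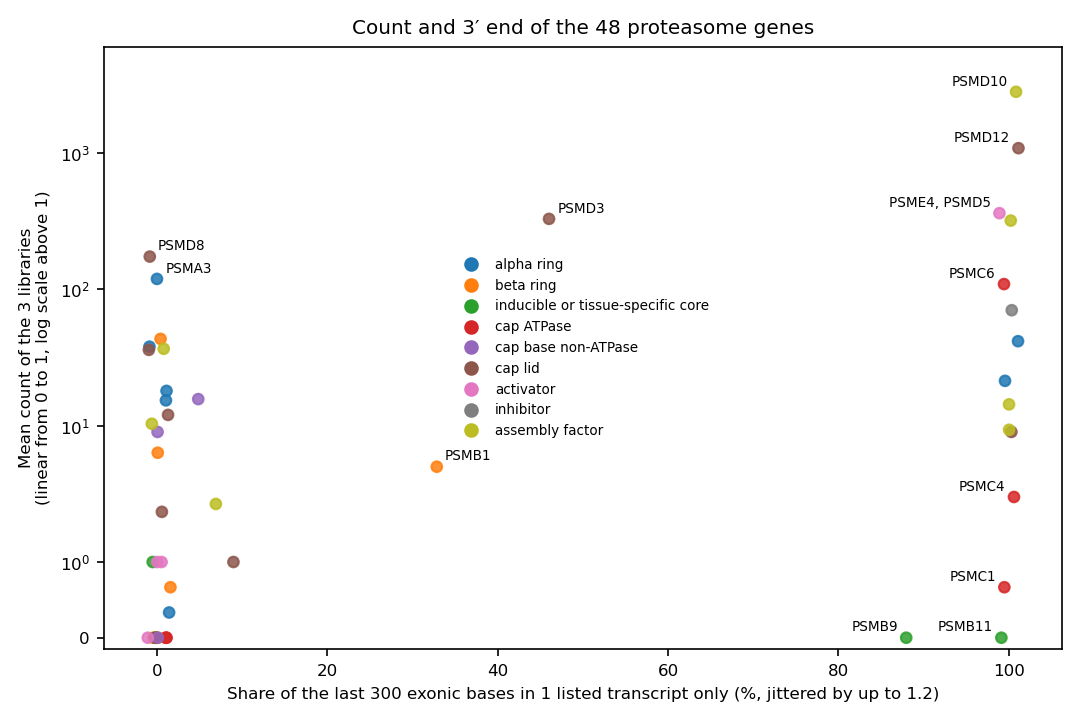
Mean count of the 3 libraries (linear from 0 to 1, logarithmic above) against the share of the last 300 exonic bases that lies in 1 listed transcript only, for the 48 proteasome genes coloured by role. The genes gather at 0% and 100%, with PSMD10 and PSMD12 at the top right and PSMB9 and PSMB11 at 0 counts despite 88.7% and 100% own bases.

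The pattern had exceptions in both directions. PSMD8 (174 counts per library on average) and PSMA3 had no own base at the canonical 3′ end. PSMC4, with 100% own bases, had 9 counts in all, and PSMB9 and PSMB11 had none. Transcripts can also be divided by whether they have any exonic base of their own over their whole length. Of 443 listed transcripts of proteasome genes, 191 had none, and these held 0 of the 17223 counts. Over all matched transcripts, 76836 of 223558 had none, and they held 475932 of 21767815 counts. The strand setting and the treatment of reads on several transcripts are not given in the sources used here. A proteasome gene at 0 counts is therefore only listed at 0, and the part of shared sequence in any level above was not tested.

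For PSMC1 and PSMD7 the last 300 bases were 100% their own on the strand and 0% on both strands together. The end of PSMC1 lies wholly within exons of NRDE2 on the opposite strand, which had 71, 65 and 109 counts against 0, 0 and 2 for PSMC1. The end of PSMD7 lies within exons of the long non-coding gene ENSG00000259972, which had 10, 3 and 5 counts. Reads of such pairs cannot be told apart where strand is not used.

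The kind of transcript that held the counts differed between genes. Canonical transcripts held 88.3% of the 17223 counts, but 63.5% without PSMD10 and PSMD12, whose counts lay almost wholly on PSMD10-201 (99.9%) and PSMD12-201 (100%). Transcripts annotated with a retained intron held 4.78% of all proteasome counts and 14.8% without PSMD10 and PSMD12. Of the 36 genes with counts, the leading transcript was canonical in 14 and had a retained intron in 11. It was another coding transcript in 7, a transcript with no defined coding sequence in 3 and a target of nonsense-mediated decay in 1.

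**Figure D3:**
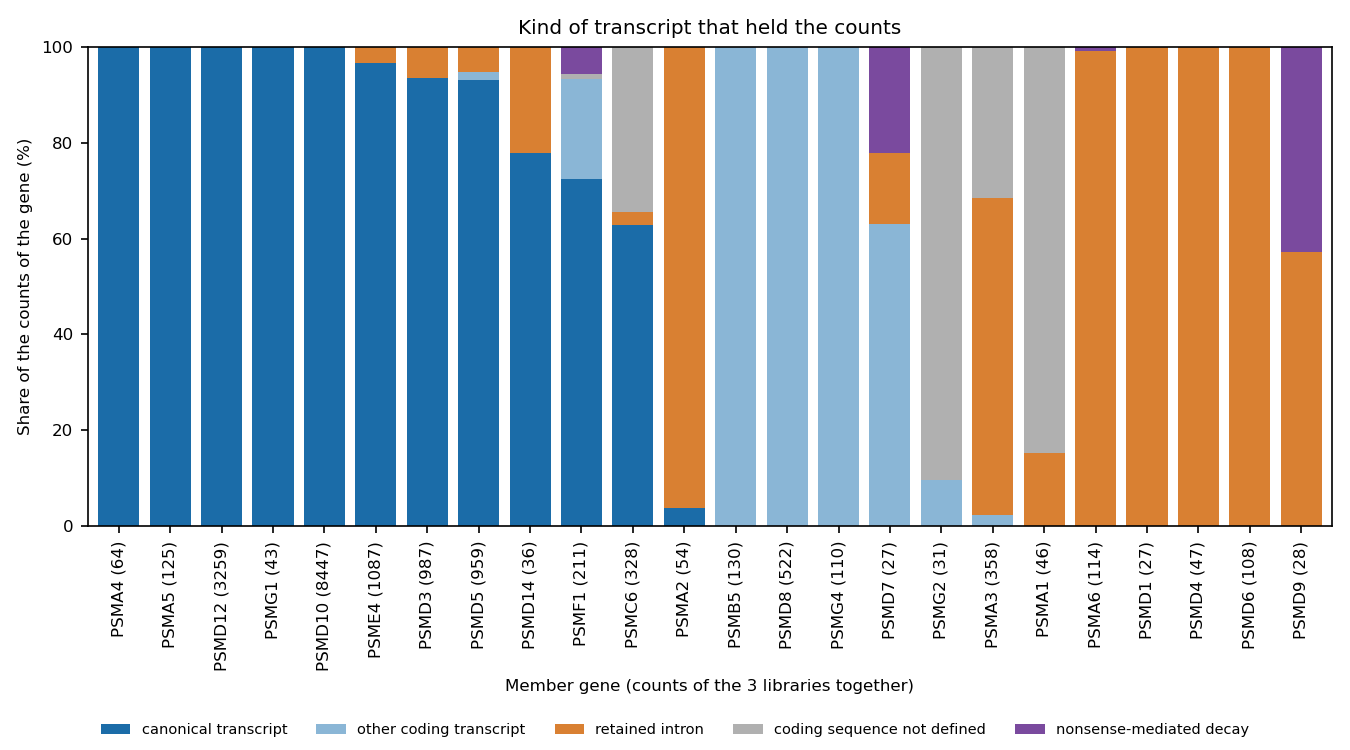
Share of the counts of each proteasome gene, for the 24 genes with at least 20 counts over the 3 libraries (number in brackets), that lay on each kind of annotated transcript. Canonical transcripts hold nearly all counts of PSMD10 and PSMD12 (left), and retained introns hold all counts of PSMD1, PSMD4 and PSMD6 (right).

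Several of the higher levels rested on short or non-canonical transcripts. PSMB5-206, a coding transcript of 444 bases of which 93 are its own, held 99.2% of the PSMB5 counts, so the 21.2 TPM of PSMB5 describe that transcript. PSMD8-202, of 541 bases, held 91.2% of the PSMD8 counts. The counts of PSMA3 were spread over PSMA3-203 (38.0%) and PSMA3-212 (20.9%), both with a retained intron, and PSMA3-206 (31.6%), which has no defined coding sequence, and coding transcripts held 2.23%. PSMA6-205 and PSMA6-212, with retained introns, held 58.8% and 40.4% of the PSMA6 counts. PSMA2, PSMD4 and PSMD6 likewise had 96.3% to 100% of their counts on retained introns. The leading transcript held less than 50% of the counts in PSMA3 (38.0%), PSMG2 (38.7%), PSMD1 (40.7%), PSMD9 (42.9%), PSMC4 (44.4%) and PSMG4 (49.1%). With coding transcripts alone, the median of the 31 structural subunits was 0 TPM.

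Pseudogenes are numerous in this family, and most are processed, that is, genomic copies of spliced transcripts. Of 44 named after a proteasome gene, 1 on the Y chromosome is not reported, 31 of the other 43 had counts and 13 reached a mean of 1 TPM. Of these 13, 12 are processed and PSMD12P1 is not. The copies of PSMC1 stood highest. PSMC1P10 (chr2:17385091-17386417) had 252, 272 and 88 counts and 35.1 ± 22.5 TPM, and PSMC1P1 (chr3:68635705-68637024) had 134, 219 and 127 counts and 26.7 ± 14.9 TPM. The 13 copies of PSMC1 together had 448, 568 and 240 counts, against 0, 0 and 2 for PSMC1. In both leading copies replicate 3 was lowest.

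PSMC1P1 matches the coding sequence of PSMC1-201 over its whole length of 1320 bases with 1 difference, T930A, counted from the first base of PSMC1-201 with the base of PSMC1 first. The 29 bases around it are shown because reads from the copied stretch that miss this position fit both genes equally well, with the differing base in capitals.
PSMC1: gggacaaaaagataTgactccaattctgg
PSMC1P1: gggacaaaaagataAgactccaattctgg
The stretch of PSMC1P1 lies at chr3:68636575-68636603 on the plus strand of GRCh38, and that of PSMC1 spans an exon junction between positions 90268403 and 90269414 of chromosome 14. Reads of the 2 genes can be split by the counting, and both values are uncertain for that reason. PSMC1P10 is more distant, since 19.8% of its 31-base words occur in a PSMC1 transcript. None of the words in the last 300 bases of PSMC1-201 occur in any of its 13 copies.

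The 6 copies of PSME2 had 52, 50 and 57 counts together, against 0 for PSME2, and PSME2P6 led them with 18, 22 and 21 counts and 13.1 ± 4.05 TPM. PSME2P2 followed with 5.16 ± 0.925 TPM and PSME2P1 with 3.05 ± 1.47 TPM. PSME2 was the proteasome gene whose 3′ end was most repeated in its copies, with 57.8% of the words of its last 300 bases. In the other genes with named copies this share was 7.41% or less. Among the other copies at 1 TPM or more, PSMC1P9 (3.05 TPM), PSMC1P12 (3.04), PSMC1P8 (1.97) and PSMC1P5 (1.89) belong to PSMC1, and PSMB3P1 (1.83), PSMC2P1 (1.39) and PSME2P3 (1.09) to genes that were themselves at 0 counts. PSMC1P5 had 1, 3 and 0 counts, and without replicate 2 its mean was 0.623 TPM. Without the same replicate PSMB3P1 was at 1.03 TPM and PSME2P3 at 0.719 TPM. PSMD12P1 had 28 counts against 3259 for PSMD12.

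**Figure D4:**
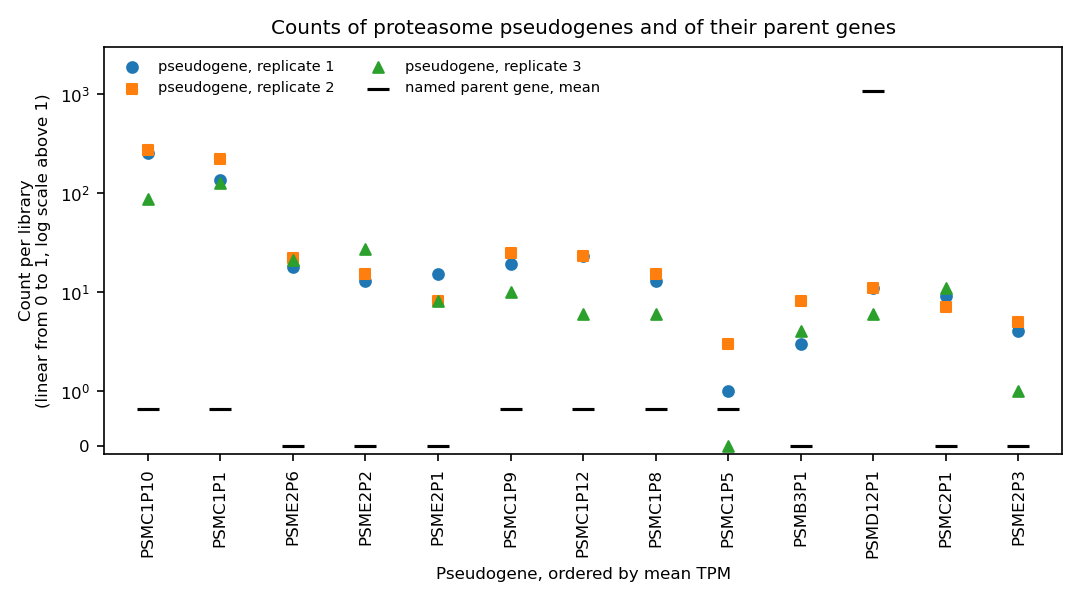
Count in each library (linear from 0 to 1, logarithmic above) of the 13 pseudogenes with a mean of at least 1 TPM, with the mean count of the gene each is named after as a bar. In 12 of the 13 the gene lies at or below 1 count per library, and PSMD12, at 3259 counts in all, lies above its copy.

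The replicates are described in the study's methods as independent and biological, and the labels number them without naming separate cultures, so the spread between them may be partly technical. A chi-square test of homogeneity asked whether the counts of a gene differed between the libraries by more than counting error, given the total of nuclear genes in each. It was run on genes with a mean of at least 20 counts, with Benjamini-Hochberg adjustment over 8686 genes, and it compares these libraries and not conditions. Of 15 proteasome genes tested, 10 varied, against 60.8% of all genes tested. The coefficient of variation was taken on nuclear CPM, which is the count scaled to the total of nuclear genes. It ran from 5.78% for PSMD10 to 60.2% for PSMA6. Its median was 20.9%, against 18.4% over all genes tested and 15.6% over the 6322 protein-coding genes among them.

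**Figure D5:**
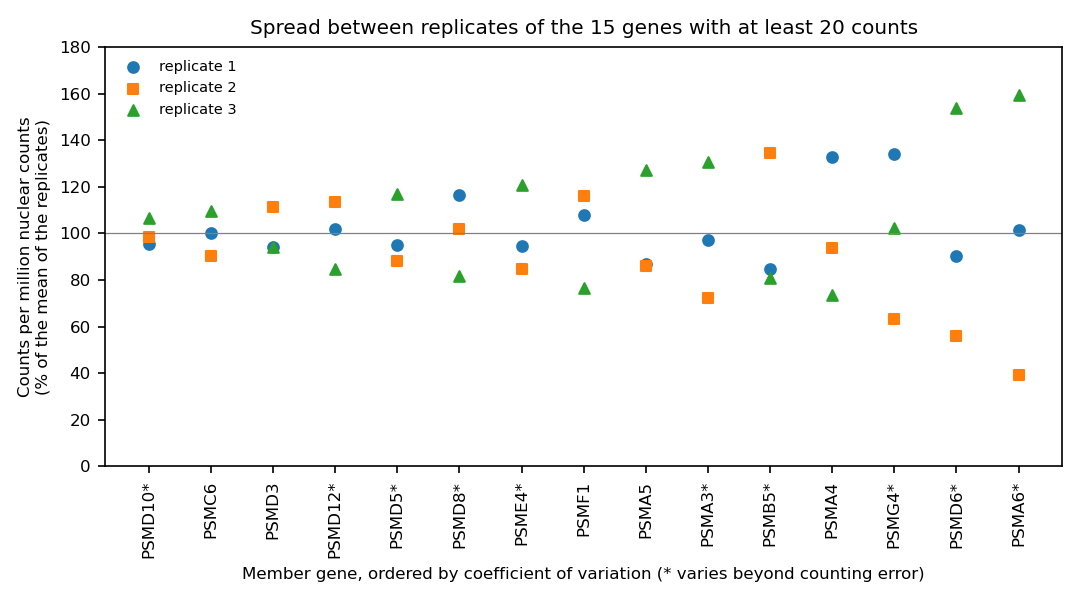
Nuclear CPM in each replicate as a percentage of the mean of the replicates, for the 15 proteasome genes with a mean of at least 20 counts, ordered by coefficient of variation, with an asterisk for those that varied beyond counting error. Replicate 3 is the highest or lowest point in every gene but PSMG4, and the spread widens from PSMD10 (5.78%) to PSMA6 (60.2%).

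PSMD12 differed most clearly, with 180, 200 and 149 nuclear CPM (adjusted p = 8.14e-10 by the chi-square test), lowest in replicate 3. PSMA6 had 6.16, 2.37 and 9.67 nuclear CPM (adjusted p = 7.12e-06) and PSME4 had 55.3, 49.5 and 70.6 (adjusted p = 1.44e-05), both highest in replicate 3. PSMD5 also passed, with 49.1, 45.5 and 60.3 nuclear CPM (adjusted p = 0.00201), although its TPM spanned a narrow range. PSMD10 passed the test with a small spread, 434, 448 and 485 nuclear CPM (adjusted p = 0.000205), at a depth of 8447 counts in all. PSMC6, PSMD3, PSMF1, PSMA5 and PSMA4 did not pass, with PSMA5 at 5.84, 5.77 and 8.56 nuclear CPM (adjusted p = 0.136) and PSMC6 at 17.7, 15.9 and 19.3 nuclear CPM (adjusted p = 0.433). Without replicate 3, 2 of the 15 genes varied, PSMA6 and PSMG4, against 15.5% of all genes. Replicate 3 also had the largest mitochondrial share, 25.8%, and its part in the result was not tested.

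Genes of the ubiquitin-proteasome pathway outside the family were read from a list of 48 genes, of which 24 were expressed. Subunits, assembly factors and the import factor AKIRIN2, all without a PSM symbol, gave 3 expressed of 5. AKIRIN2, which guides proteasomes into the nucleus, had 1224, 1115 and 1260 counts and 133 ± 27.6 TPM, SEM1, a small lid subunit, had 3.14 ± 0.190 TPM, and POMP, the core maturation factor, and ADRM1, a ubiquitin receptor, had 0 counts. Of 10 shuttle and unfoldase genes 7 were expressed, from VCP, the segregase upstream of the proteasome, at 420 ± 132 TPM to NSFL1C at 0. Of 8 proteasome-bound deubiquitinases and ligases 4 were expressed, led by UCHL5 at 93.4 ± 28.0 TPM, with PITHD1 at 0 counts. The last 300 exonic bases were 0% their own in VCP and UCHL5, and also in NSFL1C and PITHD1.

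The transcription factor NFE2L1 drives proteasome genes after inhibition of the protease, by way of antioxidant response elements that it binds with small MAF proteins. NFE2L1 had 0 counts, with 19.3% own bases at its 3′ end. Of the 9 regulators 5 were expressed, led by NFYA, a subunit of the CCAAT-binding factor, at 40.1 ± 7.07 TPM. Of 12 antigen-processing genes 3 were expressed, whereas B2M, HLA-B, HLA-C, TAP1 and TAP2 had 0 counts like PSMB8 and PSMB9. TAP2 had 100% own bases at its 3′ end, and B2M, HLA-B, HLA-C and TAP1 had 0%.

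RefSeq promoters of 300 bases (250 before and 50 after the start, GRCh38.p14) matched 42 of the 48 genes, and PSMA7, PSMB1, PSMB6, PSMB7, PSMD4 and PSMG3 had no entry. Motifs were searched on both strands and a gene was counted where any of its promoters held one. The core of the antioxidant response element, TGACNNNGC, was found in 15 of the 42 genes (35.7%), against 18.0% of 15334 protein-coding genes. The ETS motif CCGGAAG was found in 15 genes (35.7%, against 16.7%), CCAAT in 20 (47.6%, against 42.5%), the GC box GGGCGG in 29 (69.0%, against 65.1%), TATAAA in 5 (11.9%, against 12.4%) and the E box CACGTG in 3 (7.14%, against 10.9%). These are matches of letters and not sites, and promoters of a gene can overlap. The core elements of a lid subunit, of 2 assembly factors and of a beta-ring subunit are shown with the fixed bases in capitals.
PSMD12: TGACgctGC
PSMD5: TGACacgGC
PSMG1: TGACagcGC
PSMB3: TGACtttGC
They lie at chr17:67366734-67366742 (minus strand), chr9:120843048-120843056 (minus), chr21:39183626-39183634 (minus) and chr17:38752637-38752645 (plus). The median level was 1.05 TPM in the 15 genes with the core element and 0.944 TPM in the 27 without it, and the 3′ end was shared in 6 and 20 of them. PSMD12 and PSMD5 were in the high category, and PSMB3 had 0 counts.

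The study mapped i-motifs, which are folded structures of C-rich DNA, so runs of 4 C tracts of at least 3 bases with gaps of up to 7 bases were also searched in the promoters. They were found on either strand in 12 of the 42 genes (28.6%), against 38.9% of protein-coding genes. On the coding strand they were found in 11 genes (26.2%, against 21.7%) and on the other strand in 5 (11.9%, against 23.8%). The stretches of 5 genes are shown, from an ATPase that was expressed, an ATPase at 0 counts, the inhibitor, an inducible core gene and an assembly factor, with the C tracts in capitals.
PSMC6: CCCCtcgCCCCgCCCCttCCCCC
PSMC3: CCCaCCCttctCCCtCCC
PSMF1: CCCCgCCCCgCCCCgtCCCC
PSMB8: CCCttgaCCCatcattCCCCCgaCCCCC
PSMG4: CCCCCaaCCCaagCCCgggatcgCCCC
They lie at chr14:52707143-52707165 (plus strand), chr11:47426598-47426615 (minus), chr20:1118607-1118626 (plus), chr6:32844178-32844205 (minus) and chr6:3258849-3258875 (plus), each on the coding strand of its gene. Of the 12 genes with such a stretch 4 were expressed, with a median of 0.344 TPM and a shared 3′ end in 7. Of the 30 without, 17 were expressed, with a median of 1.87 TPM and a shared end in 19. No test was run on these medians, and the part of the 3′ end in them was not tested.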

How the data were processed

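The members and gene lists were chosen with earlier results of these data known. The 3 replicates of HEK293T cells formed 1 group. Per the labels, libraries were made from total RNA with a QuantSeq 3′ kit, although the labels also call the material genomic DNA. The submitters' processing notes name Trimmomatic 0.38.0, HISAT2 2.2.1, featureCounts 2.2.1 and hg38. The annotation release, strand setting and handling of reads on several features are not given in the sources used here. The authors deposited whole-number counts per transcript, not normalized, and the transcript length in bases. Their deposited TPM is the count over the length, scaled to a total of 1000000 in each library.

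Identifiers without version were joined to GENCODE 44, and 223558 of 247541 transcripts matched. Unmatched transcripts stayed in library totals. Counts and TPM were summed per gene with Python 3.11.15, pandas 2.3.3, numpy 2.4.6 and scipy 1.17.1, and figures were drawn with matplotlib 3.10.9. Total counts per library (6262175 to 8521624) limit precision to the 3-count floor. Division by length lowers long transcripts in 3′ libraries, so CPM was kept beside TPM. Expressed was a mean of at least 1 TPM, and the limits of 10% and 90% for shared and own 3′ ends were set after the data were seen. The chi-square test was tested on simulated data. Normalization factors of edgeR 4.0.16 and DESeq2 1.42.0 (R 4.3.3) entered alternatives only. Other alternatives changed the threshold, scale, transcripts, pseudocount, window and replicates.

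Every gene is counted, and values are given for the highest and lowest gene of each role and pathway list, the core pairs, genes under 1 TPM or at most 3 counts, genes whose leading transcript held under 50% of counts, and pseudogenes of at least 1 TPM. Some genes of the marker and pathway lists are not reported here. Other genes with values, the substitution and the antisense genes were chosen after their values were seen.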

Additional observations from a re-analysis of the deposited data

How the results depend on the processing

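The number of expressed genes was 36 with any TPM above 0 and 9 at a mean of 10 TPM, against 23, and the high category then held 10 and 1 genes, or 3 with quartiles of protein-coding genes alone and 4 in CPM or with at least 1 TPM in every replicate, against 6. Without mitochondrial genes the share of TPM was 0.0972% and the structural median 1.40 TPM, and with coding transcripts alone that median was 0. The SD of the structural subunits on the log2 scale was 3.06 with a pseudocount of 0.1 and 1.67 over expressed subunits, against 1.90. At a mean of 50 counts 6 genes varied, of 9 tested. With 1 replicate left out, varying genes numbered 2 (without replicate 3) to 9, expressed genes 23 to 24, genes of the high category 5 to 6, the TPM share 0.0650% to 0.0789% and the structural median 0.957 to 1.30 TPM. Pseudogenes of at least 1 TPM then numbered 12 to 13, an alternative added after seeing the data. With a shared end defined as no own base, an alternative added after seeing the data, 19 genes had one, against 31. In CPM, 13 of the 48 genes changed category. Of all recomputed values, 43 moved by less than the replicate spread or, for counts, by no more than 1.5 times. The other 13 moved beyond these limits. The ratio of the highest to the lowest structural subunit has no value, because the lowest had 0 counts. No paired analysis was possible because there was 1 condition.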
